A study of Mus musculus with 3 samples.

Results

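Metalloproteinases and their tissue inhibitors were followed in cultured mouse ovarian surface epithelium (OSE), the cell layer that covers the ovary, before and after a change from an epithelial to a mesenchymal phenotype. The set held 10 genes: Mmp2, Mmp11, Mmp14, Timp1, Timp2, Timp3, Adam12, Adam19, Adamts1 and Adamts5. They were looked for by gene name on the array, with the older name Timp taken for Timp1. Of these, 8 genes had 12 probes, among 10008 named genes and 20371 probes in all, and Adam12 and Adam19 had no probe under these names.

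Matrix metalloproteinases (MMPs) are zinc-dependent enzymes that cut proteins of the extracellular matrix, and most are made as inactive proenzymes. The ADAM and ADAMTS families are related: ADAM proteins sit in the membrane and shed other surface proteins, while ADAMTS proteins are secreted and cut proteoglycans and procollagens. Tissue inhibitors of metalloproteinases (TIMPs) bind the active site of these enzymes, and TIMP2 also takes part, with the membrane enzyme MMP14, in activating the proenzyme of MMP2 at the cell surface. In the ovary this system is known for remodelling the tissue around the follicle at ovulation, when the surface layer ruptures and is repaired.

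The cells came from ovaries of superovulated, mated C57/Bl6 females whose outer capsule had been removed, and were freed by collagenase, dispase and trypsin. Each of 3 cultures was divided. The epithelial share stayed in 2.5% fetal bovine serum, and the mesenchymal share was grown in 15% serum for 1 week. Both were collected at 80% confluence. No transgene or knockout was involved, and the labels name neither the age of the mice nor how many ovaries made a culture. Serum concentration and phenotype differ together between the groups, so their parts cannot be told apart. Amplified RNA of both shares of a culture was hybridised to 2-colour Agilent arrays, 2 per culture with the dyes exchanged, which gave 6 arrays and n = 3 cultures.

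Every value below is a log2 ratio of mesenchymal over epithelial RNA unless said otherwise, as mean ± SD over cultures, where 1 unit is a doubling. Adjusted p is from limma's moderated test against 0 with Benjamini-Hochberg adjustment over all 20185 probes tested, and a probe was called changed when it was under 0.05. Levels are log2 intensities after normalisation between channels. They were compared within a probe, since different probes differ in brightness for the same amount of RNA. The direction of each ratio rests on the dye orientation stated in the names of the deposited arrays.

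A dye effect, the difference between Cy5 and Cy3 that stays when the RNAs are exchanged, was large on these arrays. Over all probes, arrays of the same orientation correlated at 0.81 to 0.93, and arrays of opposite orientation, turned to the same ratio, at -0.53 to -0.14. A dye effect was called for 57.7% of probes. Averaging the 2 arrays of a culture cancels it as far as it is equal on both, which was not tested. Each member is therefore given in both orientations. The cultures' averaged ratios correlated across probes, which are not independent replicates, at 0.59 for cultures 1 and 2, 0.63 for 1 and 3, and 0.88 for 2 and 3. The array of culture 3 with mesenchymal RNA in Cy3 stood apart, with another annotation, a constant background and 1639 outlier-flagged spots against 61 to 467 on the others. All 12 member probes were well above background for both RNAs on all 6 arrays, although this flag is weak: 18.5% to 81.5% of the 162 negative control probes also carried it.

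Promoter sequence is shown for Mmp11 and Timp3, which changed, and for Mmp14 and Timp2, the partners of MMP2 in its activation. The lines give the 100 bases before the RefSeq start of each gene (build GRCm38.p6), with matches to the GC box, a binding motif of SP family factors, in capitals.
Mmp11, chr10:75932503-75932602, minus strand: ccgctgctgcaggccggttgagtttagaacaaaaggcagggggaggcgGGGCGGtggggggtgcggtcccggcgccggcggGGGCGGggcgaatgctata
Timp3, chr10:86300312-86300411, plus strand: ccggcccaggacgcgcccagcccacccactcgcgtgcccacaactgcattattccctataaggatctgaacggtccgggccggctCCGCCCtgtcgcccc
Mmp14, chr14:54431498-54431597, plus strand: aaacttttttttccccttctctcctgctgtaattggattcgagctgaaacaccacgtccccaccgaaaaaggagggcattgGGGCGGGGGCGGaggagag
Timp2, chr11:118355412-118355511, minus strand: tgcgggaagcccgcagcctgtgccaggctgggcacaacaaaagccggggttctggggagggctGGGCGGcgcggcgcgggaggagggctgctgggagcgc
Of the 10 genes, 7 had an entry in the RefSeq promoter table; Mmp2, Adam12 and Adamts5 were not matched. In the 250 bases before the start, the GC box GGGCGG, searched on both strands, was found in 6 of the 7 genes. It stood in 32.7% of 32851 windows of the same length in the table. The first count is by gene, where Adam19 had 3 windows, and the second by window, so the units differ. The AP-1 motif TGANTCA, searched on both strands and present in 6.75% of windows, was found in 1 of 3 windows of Adam19, which was not measured. TATAAA, present in 12.4% of windows, was found in Adamts1. These matches describe letters, not binding.

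Of the 12 probes, 3 changed: Mmp2 and a Timp3 probe were lower in mesenchymal cells and Mmp11 was higher. Mmp2, a secreted gelatinase that cuts type IV collagen, had a ratio of -1.08 ± 0.092 (n = 2, adjusted p = 0.00355). For Timp3, the inhibitor that binds to the matrix, 1 of 2 probes had a ratio of -1.07 ± 0.48 (adjusted p = 0.0134). Mmp11, stromelysin 3, a secreted enzyme activated inside the cell by furin, had a ratio of 0.54 ± 0.21 (adjusted p = 0.0204). The other 9 probes, of Mmp14, Timp1, Timp2, Timp3, Adamts1 and Adamts5, did not pass. Over all probes 2272, or 11.3%, were called, 5.6% higher and 5.66% lower. The median ratio of the members was -0.16 against -0.0032 for all probes, and the median absolute ratio was 0.28 against 0.096. An absolute ratio of 1 or more, at least a 2-fold change, was measured for 2 of the 12, Mmp2 and Timp3, against 1.75% of all probes. The members were chosen with earlier results of these data known, so these comparisons are descriptions. The array also held 7739 probes without a gene name. Among the brightest probes of 9957 named genes, 8.67% were called higher and 7.9% lower.

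**Figure D1:**
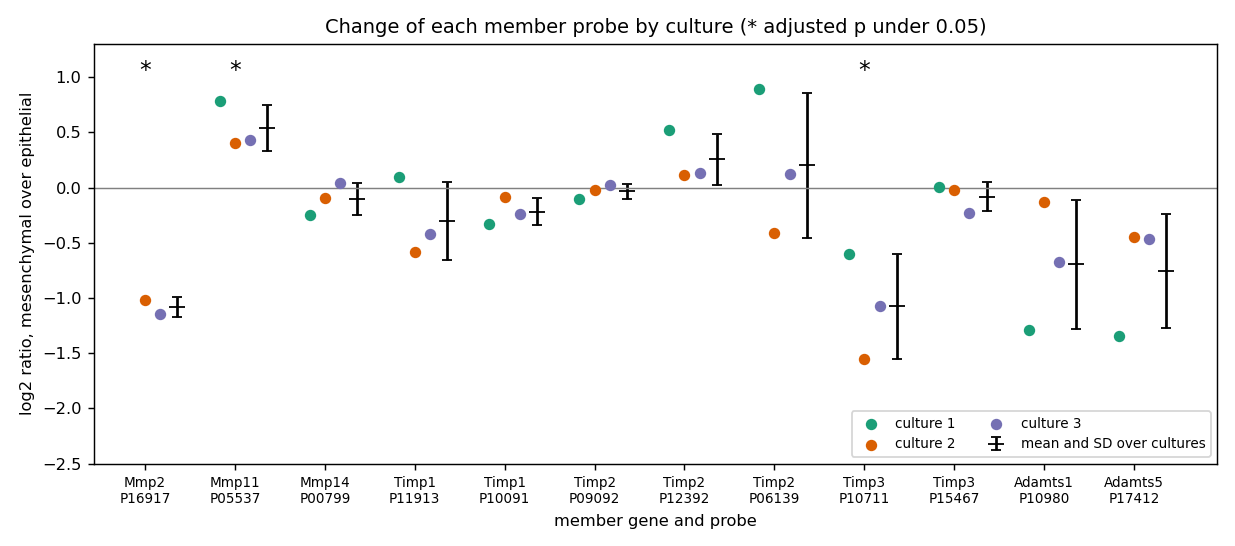
Log2 ratio of mesenchymal over epithelial RNA (vertical axis) for each of the 12 member probes (horizontal axis, gene and end of the probe name); coloured points are the 3 cultures and bars the mean and SD over cultures. Mmp2 and the Timp3 probe P10711 lie below 0 in every culture measured and Mmp11 lies above 0 in all 3, while the cultures of Timp2 P06139 spread from -0.41 to 0.89; the points of Timp2 P09092 lie near 0 at the scanner's limit.

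Mmp2 (probe A_65_P16917) had a value in 2 cultures. In culture 2 its level was 12.87 in mesenchymal and 13.89 in epithelial cells, and in culture 3 it was 12.65 and 13.80. The mesenchymal levels lay below both epithelial levels, a separation whose share over all probes was not counted. These give ratios of -1.02 and -1.15, or 0.472 of the epithelial level, with a 95% confidence interval of the log2 ratio from -1.33 to -0.84. With mesenchymal RNA in Cy5, the arrays of cultures 2 and 3 gave -0.77 and -1.07; with it in Cy3, cultures 1, 2 and 3 gave -1.28, -1.27 and -1.22. All 5 arrays were thus below 0, in both orientations. The remaining spot, of culture 1 with mesenchymal RNA in Cy5, was flagged as an outlier by the scanner software and left out, so culture 1 dropped out of the fit. That spot read -0.31, and with it kept the ratio over 3 cultures was -0.99, also called.

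Mmp11 (A_65_P05537) had mesenchymal levels of 11.69, 11.60 and 11.71 in cultures 1, 2 and 3, against epithelial levels of 10.91, 11.19 and 11.28. The groups did not overlap, which is a description given without a share over all probes. The mesenchymal levels were close to each other, while the epithelial level of culture 1 was the lowest. The ratios were 0.78, 0.41 and 0.43, a mean fold of 1.45 with a 95% interval of the log2 ratio from 0.30 to 0.77. By array they were 0.56, 0.39 and 0.59 with mesenchymal RNA in Cy5, and 1.00, 0.42 and 0.26 with it in Cy3. All 6 arrays were above 0, and the dye effect was -0.024 (adjusted p = 0.813). Without culture 3 the ratio was 0.59 and was no longer called.

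Mmp14 (A_65_P00799), the gene of the membrane enzyme that activates the MMP2 proenzyme, had ratios of -0.25, -0.098 and 0.040 and a mean of -0.10 ± 0.14 (adjusted p = 0.573). Mesenchymal levels of 14.28, 13.92 and 13.06 overlapped epithelial levels of 14.53, 14.01 and 13.02. A 95% interval from -0.31 to 0.10 bounds the difference. Its arrays split by dye: -1.05, -1.34 and -1.80 with mesenchymal RNA in Cy5, and 0.55, 1.14 and 1.88 with it in Cy3. The dye effect of -1.29 (adjusted p = 0.000314) exceeded the change, and either orientation alone would have given a call, in opposite directions.

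Both ADAMTS genes showed this split more strongly. Adamts5 (A_65_P17412), an aggrecanase, had mesenchymal levels of 12.53, 12.77 and 12.44 against epithelial levels of 13.88, 13.22 and 12.91. Each mesenchymal level lay below all 3 epithelial levels, again without a share over all probes. The ratios were -1.35, -0.45 and -0.46, with a mean of -0.75 ± 0.51 that just missed the threshold (adjusted p = 0.0539; 95% interval -1.20 to -0.30). By array it read -2.48, -1.96 and -2.18 with mesenchymal RNA in Cy5, but -0.21, 1.06 and 1.26 with it in Cy3. The dye effect was -1.46. Its value was called, at -0.77, with the scanner software's own ratios and with the authors' deposited table, at -0.79 with median centring and at -0.91 without culture 2. It was also called with scale normalisation between arrays (-0.88) and with plain background subtraction (-0.76). At -0.75 it was called with the brightest probe per gene and with all 6 arrays fitted with the culture as a random block. Among other settings, it was not called without culture 3 (-0.90), with no background subtraction (-0.74) or in the comparison of both RNAs without pairing by culture. Without culture 1 the ratio was -0.46.

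Adamts1 (A_65_P10980), a secreted proteinase induced in the ovary around ovulation that cuts versican, had ratios of -1.29, -0.13 and -0.67, with a mean of -0.70 ± 0.58 (adjusted p = 0.0929; 95% interval -1.20 to -0.20). Mesenchymal levels of 12.45, 12.69 and 11.68 overlapped epithelial levels of 13.74, 12.81 and 12.35. The mesenchymal level was the lower one in each culture, and by little in culture 2. On the arrays it read -2.64, -2.35 and -2.95 with mesenchymal RNA in Cy5, and 0.066, 2.10 and 1.60 with it in Cy3, a dye effect of -1.95. It was called with the scanner software's ratios and with the authors' deposited table (both -0.72), with median centring (-0.74), with scale normalisation between arrays (-0.88) and without culture 2 (-0.98). Settings without a call included culture 3 left out (-0.71), all 6 arrays fitted with the culture as a random block, and no pairing by culture. Leaving out culture 1 gave a smaller ratio of -0.40.

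**Figure D2:**
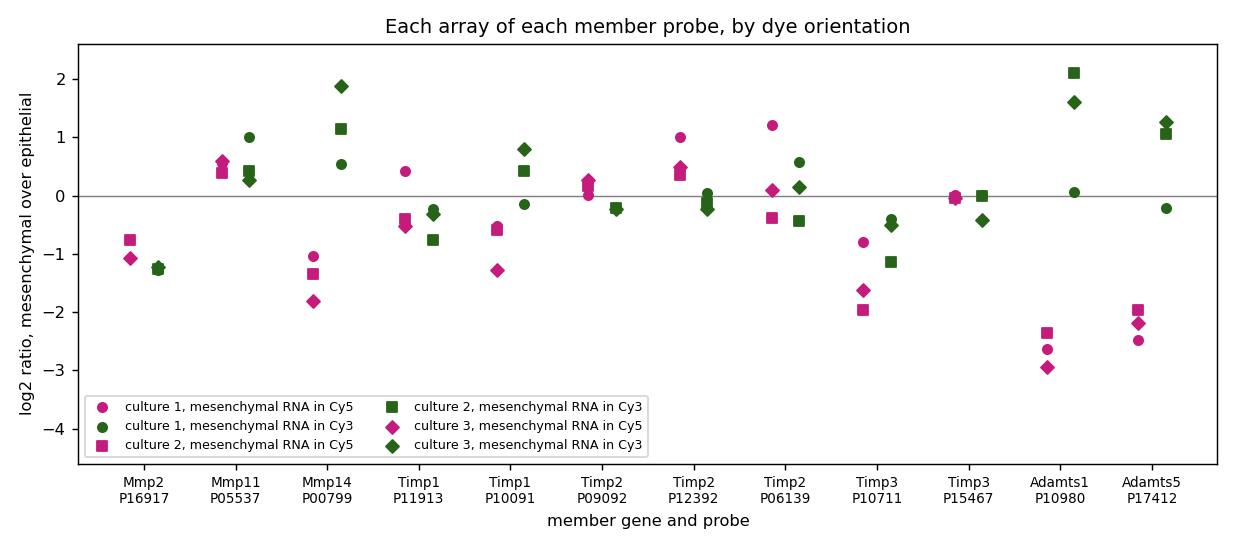
Log2 ratio of mesenchymal over epithelial RNA (vertical axis) of each member probe (horizontal axis) on each array; colour marks the dye of the mesenchymal RNA and shape the culture. The orientations lie together for Mmp2 and Mmp11 and far apart for Mmp14, Adamts1 and Adamts5, where Cy5 arrays lie between -2.95 and -1.05.

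Timp3 was measured by 2 probes that differed. On the brighter (A_65_P10711), mesenchymal levels were 14.02, 13.50 and 13.17 and epithelial levels 14.62, 15.05 and 14.24. All mesenchymal levels lay below the lowest epithelial level, for which no share over all probes was counted either. The ratios were -0.60, -1.55 and -1.07, or 0.475 of the epithelial level, with a 95% interval of the log2 ratio from -1.50 to -0.65. Arrays with mesenchymal RNA in Cy5 gave -0.80, -1.97 and -1.63, and those with it in Cy3 -0.40, -1.14 and -0.51. All 6 were below 0, with a dye effect of -0.39 (adjusted p = 0.00320). Without culture 3 the ratio was -1.08 and was no longer called. The dimmer Timp3 probe (A_65_P15467), at a mean log2 brightness of 10.53 against 14.12, had ratios of 0.0072, -0.021 and -0.23 and a mean of -0.082 ± 0.13 (adjusted p = 0.655; 95% interval -0.28 to 0.11). Both array annotations name these probes, or describe them, as Timp3, so the call for this gene rests on 1 of its 2 probes.

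Timp1, a secreted inhibitor that is often induced by growth factors, had 2 probes and neither passed. Probe A_65_P11913 had ratios of 0.092, -0.58 and -0.42 and a mean of -0.30 ± 0.35 (adjusted p = 0.256; 95% interval -0.63 to 0.027). Culture 1 lay above 0 and the other cultures below. Its mesenchymal levels, 14.67, 14.21 and 14.21, overlapped epithelial levels of 14.58, 14.79 and 14.63, and without culture 1 the ratio was -0.50. Array ratios were 0.42, -0.41 and -0.52 with mesenchymal RNA in Cy5 and -0.24, -0.76 and -0.31 with it in Cy3. The other probe, A_65_P10091, carries the name of the human TIMP1 transcript in the array files and is described as human on 1 array, so its match to the mouse gene is uncertain. It had ratios of -0.33, -0.086 and -0.24, a mean of -0.22 ± 0.12 (adjusted p = 0.157). Its arrays were -0.52, -0.59 and -1.28 with mesenchymal RNA in Cy5 and -0.14, 0.42 and 0.79 with it in Cy3, a dye effect of -0.58.

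For Timp2, none of 3 probes passed. The annotation of 1 array names A_65_P09092 D11Bwg1104e. It names A_65_P06139 Timp2 but describes it only as similar to a chromosome 11 sequence. The probes A_65_P09092 and A_65_P12392 were at the scanner's limit: the first reached saturation on 6 arrays in its mesenchymal channel and on 5 in its epithelial channel, the second on 5 and 1. For A_65_P09092 the ratio is set by the scanner's limit, so it has no direction and no fold is given. For A_65_P12392 the ratios were 0.52, 0.11 and 0.13, with a mean of 0.26 ± 0.23 (adjusted p = 0.204), and saturation of the brighter RNA makes such a ratio smaller. Its arrays read 1.00, 0.35 and 0.48 with mesenchymal RNA in Cy5 but 0.043, -0.12 and -0.22 with it in Cy3. On that last array, of culture 3, both RNAs were at the scanner's limit, so -0.22 carries no direction. The third probe, A_65_P06139, was not saturated and had ratios of 0.89, -0.41 and 0.13, a mean of 0.20 ± 0.66 (adjusted p = 0.711; 95% interval -0.36 to 0.76). Here both arrays of a culture had the same sign and the cultures differed: arrays with mesenchymal RNA in Cy5 gave 1.21, -0.39 and 0.10, and those with it in Cy3 0.58, -0.44 and 0.15. Its mesenchymal levels, 12.73, 12.45 and 12.73, overlapped epithelial levels of 11.84, 12.86 and 12.61.

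Across the set, a dye effect was called for 7 of 12 probes, against 57.7% of all probes, and it was larger in size than the change for 6 of 12, against 70.5% of all probes. Both member counts include the Timp2 probes A_65_P09092 and A_65_P12392, with dye effects of 0.18 and 0.36, which were at the scanner's limit. The median absolute dye effect was 0.27 among the members and 0.22 over all probes. The 3 probes that kept their sign on all arrays measured were the 3 that were called. A call is made on averages of these same array ratios, so the overlap is no separate support. No share over all probes is given for it. Without adjustment, 7 of the 12 had p under 0.05 in limma's test, as did 4745 of all 20185 probes.

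**Figure D3:**
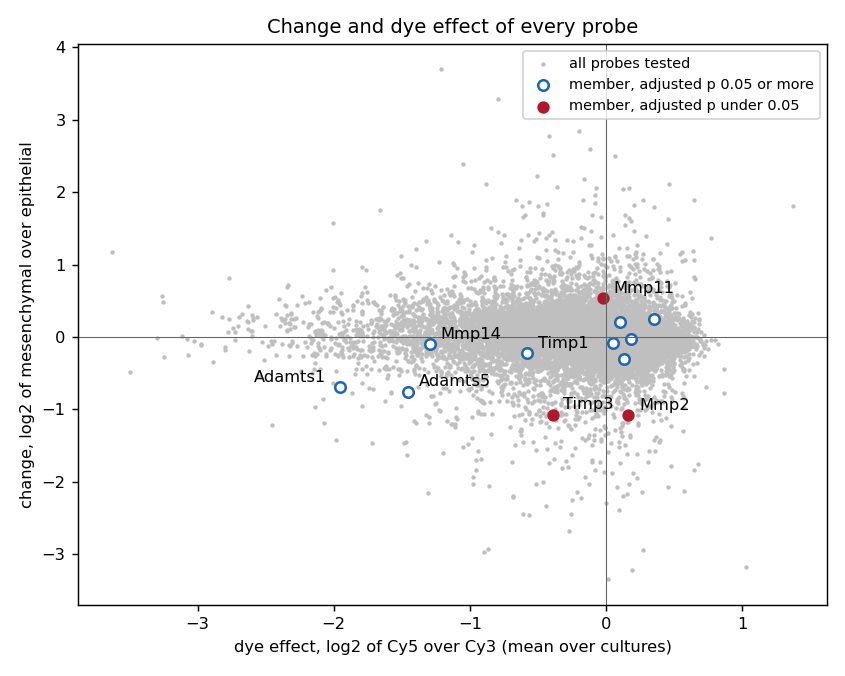
Log2 ratio of mesenchymal over epithelial RNA (vertical axis) against the dye effect, log2 of Cy5 over Cy3 (horizontal axis), both as means over cultures; grey points are all 20185 probes tested, open circles members not called and filled circles called members. Adamts1, Adamts5 and Mmp14 lie at dye effects of -1.95, -1.46 and -1.29, and the called members lie between -0.39 and 0.16.

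Likeness to the called members was measured as the Euclidean distance between array ratios, over 8593 other named genes. Nearest to Mmp2, over its 5 arrays, were Adgra2, an adhesion receptor gene (distance 0.238, ratio -1.10), Bscl2, the seipin gene of lipid droplets (0.246, ratio -1.07), and Cyb5r1 (0.319, ratio -0.91). Nearest to Mmp11, over 6 arrays, were Klf2, a zinc finger transcription factor gene (distance 0.283, ratio 0.52), Med6, a Mediator subunit gene (0.402, ratio 0.62), and Mycbp (0.407, ratio 0.40). The nearest genes to Timp3, over 6 arrays, lay farther off: Nars, an asparaginyl-tRNA synthetase gene (distance 0.730, ratio -0.86), Acat1 (0.911, ratio -0.83) and the collagen gene Col6a1 (0.962, ratio -1.16). These genes were picked for their pattern, so their ratios are descriptions.

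Other genes of the system are given by the brightest probe of each. Of 9957 named genes so described, 8.67% were called higher and 7.9% lower. Among 5 other MMP genes measured of 20 listed, 1 was higher, 0 lower and 4 did not pass, with a median of 0.074. Mmp24, a membrane-type MMP, rose by 0.60 ± 0.041 (adjusted p = 0.00433) and was above 0 on 6 arrays; without culture 3 the value was 0.60 and not called. Mmp1a, an interstitial collagenase gene, was at 0.029 ± 0.076 (adjusted p = 0.879).

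Other members of the ADAM families mostly did not pass. Of 7 other ADAM genes measured, limma called 0, and the median was 0.0073. An unadjusted p under 0.05 was reached by 2 of them, and by 4745 of all 20185 probes. Adam9 was at -0.075 ± 0.15 (adjusted p = 0.710) and Adam8 at -0.014 ± 0.19 (adjusted p = 0.956). By dye these also split, with Adam9 at -0.77 and 0.62 and Adam8 at 0.46 and -0.49, for mesenchymal RNA in Cy5 and in Cy3. Of 5 other ADAMTS genes, 1 was lower and 4 did not pass (median -0.016). Adamts2, a procollagen N-proteinase gene, fell by 0.66 ± 0.19 (adjusted p = 0.00870) but was not called with culture 3 left out (-0.59). Adamts4, another aggrecanase gene, was at -0.016 ± 0.069 (adjusted p = 0.936).

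Among 6 other inhibitors and clearance receptors, 2 were lower and 0 higher (median -0.053). Sfrp1, a secreted WNT antagonist that also inhibits ADAM10, fell by 1.05 ± 0.21 (adjusted p = 0.00220), and Pcolce2, a procollagen C-proteinase enhancer gene, by 0.71 ± 0.25 (adjusted p = 0.0115). The 8 probes of Timp4, singled out after its values were seen as the remaining TIMP gene, disagreed. The brightest was at 0.0094 (adjusted p = 0.963), with mesenchymal RNA saturated on 1 array. The others were at -0.50, -0.43, -0.42, -0.20, -0.06, 0.03 and 0.16, and 3 of them were called. The astacin proteinases Bmp1 (0.19 ± 0.35, n = 2, adjusted p = 0.554) and Mep1a (-0.016 ± 0.083, adjusted p = 0.938) did not pass, and Mep1a was saturated on 4 arrays for mesenchymal and 3 for epithelial RNA.

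Activators of proenzymes and inducers went both ways: of 15 measured, 2 were higher, 2 lower and 11 did not pass (median 0.017). Pcsk6, a furin-like convertase gene, fell by 2.17 ± 0.12 (adjusted p = 0.000139), and its cultures gave -2.31, -2.10 and -2.09. Plat, the gene of tissue plasminogen activator, rose by 1.47 ± 0.22 (adjusted p = 0.000791) on its brighter probe, with cultures at 1.67, 1.51 and 1.22, while its other probe was at -0.094. Cd44, a hyaluronan receptor that can hold MMPs at the cell surface, rose by 0.90 ± 0.26 (adjusted p = 0.00521), and its other probe, at 1.06, was also called. Plaur, the urokinase receptor gene, fell by 0.46 ± 0.11 (adjusted p = 0.0156), which was not called with culture 2 (-0.41) or culture 3 (-0.52) left out.

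Matrix substrates also went both ways. Of 12 measured, 1 was higher, 3 lower and 8 did not pass (median -0.037). Among those that did not pass, Bgn and the brightest Fn1 probe were saturated on all 6 arrays for both RNAs. Their ratios, both -0.040, are set by the scanner's limit and carry no direction, and the median rests partly on that of Fn1. The type IV collagen genes, whose protein MMP2 cuts, fell by 1.42 ± 0.075 for Col4a1 (adjusted p = 0.000336) and Col4a2 likewise, with a ratio of -1.39 ± 0.33 (adjusted p = 0.00209); epithelial RNA saturated 2 and 3 of their 6 arrays. Col1a2 fell by 3.18 ± 0.12 (adjusted p = 0.000116) on a probe saturated for epithelial RNA on 4 arrays, and its other probe was at -0.021. With saturated spots left out, none of these 3 collagen probes had a value in enough cultures. Vcan, the versican gene, a substrate of ADAMTS1 and ADAMTS5, rose by 1.23 ± 0.20 (adjusted p = 0.00119), and its other probe, at 0.53, was also called.

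Of 8 shed growth factors and related substrates, 2 were higher, 1 lower and 5 did not pass (median 0.064). Ereg, an EGF receptor ligand released by ADAM17, rose by 1.21 ± 0.049 (adjusted p = 0.000455). Sdc1, the syndecan 1 gene, rose by 0.94 ± 0.11 (n = 2, adjusted p = 0.00573), with its other probe at 0.16. Igfbp3 fell by 1.11 ± 0.35 (adjusted p = 0.00533), but with a dye effect of -1.30 and 2 arrays above 0. Of 10 AP-1 and ETS transcription factors, which bind metalloproteinase promoters, 5 were higher, 0 lower and 5 did not pass (median 0.26). Fosl1 rose by 0.86 ± 0.053 (adjusted p = 0.00135), Elk3 by 0.64 ± 0.11 (adjusted p = 0.00490), Junb by 0.59 ± 0.37 (adjusted p = 0.0474) and Ets2 by 0.51 ± 0.029 (adjusted p = 0.00701). Other probes of Elk3 and Ets2 were at -0.057 and 0.17 and were not called. The calls of Elk3, Junb and Ets2 were lost without culture 3 (0.58, 0.53 and 0.50), and that of Junb also without culture 2 (0.45).

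**Figure D4:**
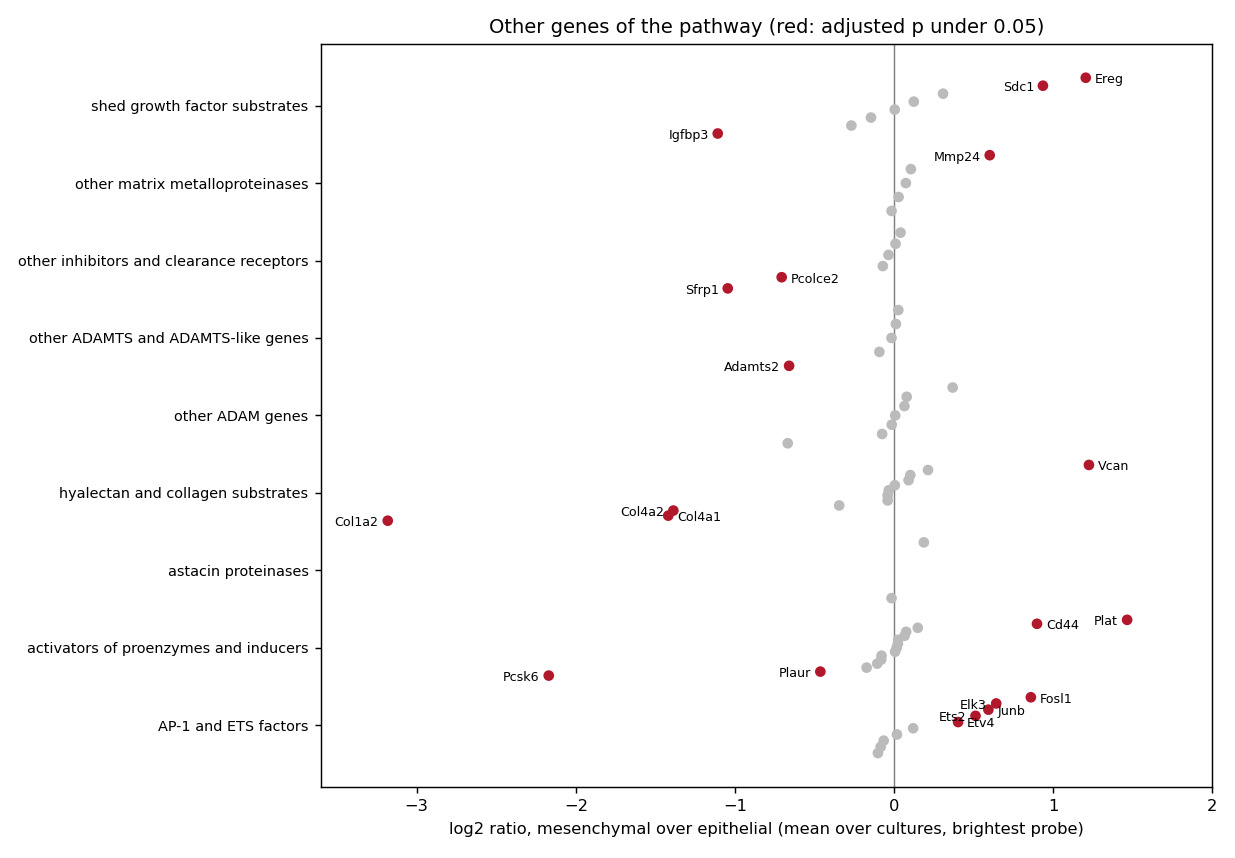
Log2 ratio of mesenchymal over epithelial RNA (horizontal axis, mean over cultures of each gene's brightest probe) for the other genes of the system, grouped by list (vertical axis; the height within a list only orders the points). Red points with names are called and grey points are not; the AP-1 and ETS factors have 5 called points, between 0.40 and 0.86, and the collagens Col1a2, Col4a1 and Col4a2 and the convertase Pcsk6 lie farthest below 0.

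Cell type markers were read in the same way, with the log2 of a list's summed level for each RNA. These sums add probes of different brightness, so they compare the RNAs of a list and not 1 list with another. Of 7 OSE and mesothelium markers, such as Krt7, Msln and Wt1, 6 were lower and 0 higher, and the sum was 17.09 to 17.34 in mesenchymal and 18.15 to 18.28 in epithelial cells. This sum includes saturated probes: Krt7 on 6 arrays and Krt19 on 2 for epithelial RNA, and Krt8 on 3 for each RNA. The other Krt7 probe was at -0.37 and was not called. Krt8, at -0.32, had a dye effect of -0.33 and 2 arrays above 0, and its other probe, at -0.18, was not called. Of 5 smooth muscle and pericyte markers 1, Acta2, was lower, on a probe saturated for epithelial RNA on 5 arrays (sum, in the 2 cultures with all 5 genes, 15.23 to 15.27 in mesenchymal against 16.23 to 16.24 in epithelial cells). Of 7 granulosa markers 1, Inhba, was lower (14.27 to 14.82 against 14.36 to 14.98), with a dye effect of -1.63 and 3 arrays above 0. Of 7 theca and stroma markers 1, Pdgfra, was lower (12.69 to 12.84 against 12.94 to 13.30), with a dye effect of -0.94 and 2 arrays above 0. None of 3 leukocyte markers (13.06 to 13.73 against 13.03 to 13.79) or 4 endothelial markers (12.45 to 13.02 against 12.35 to 13.06) was called by limma, with 0 and 2 at an unadjusted p under 0.05. In all, 4745 of 20185 probes had such a p. The part of these marker shifts in the members' ratios was not tested. In bulk RNA, fewer cells of a type and less RNA per cell cannot be told apart.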

How the data were processed

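RNA of 3 cultures was measured on 6 two-dye arrays read with Agilent's Feature Extraction. Intensities, per the file headers, are each spot's mean signal and local background as scanned. The scanner software's log10 ratios of Cy5 over Cy3 are as deposited, after its own background subtraction and lowess dye normalisation. Values in the authors' deposited table are log10 ratios and equal the difference of a culture's 2 scanner log10 ratios, divided by 2 (r = 1), with medians of 0.00555, -0.0101 and -0.00233; limma is listed, without a version, in the submitters' processing notes.

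Here intensities were corrected by normexp (offset 50) and turned by loess within each array into log2 ratios, with limma 3.58.1 in R 4.3.3. Both arrays of a culture were turned alike and averaged. Outlier-flagged spots were left out, a culture then needing both arrays and a probe 2 cultures; saturated spots were kept. Probes had to be well above background in 4 or more of the 6 arrays for 1 of the RNAs, which removed 43. Each probe was fitted alone with lmFit and eBayes. Only the turning, averaging and fit were run on simulated log2 ratios, with a dye effect equal on both arrays of a culture. That simulation could not test the earlier steps or an unequal dye effect. Channel levels used Aquantile scaling.

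Names came from a RefSeq table (GRCm38.p6) by gene ID for 9946 probes, by symbol for 95 and by synonym for 1335; 1256 kept the file's name and 7739 had none. All probes of the members were described. From each list, up to 4 called genes of largest ratio were named, or the 2 brightest where fewer than 2 were called. Members and lists were chosen with earlier results of these data known. Alternatives covered background, normalisation, filters, flags, probe choice, blocking, dye orientation, threshold and each culture left out.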

Additional observations from a re-analysis of the deposited data

How the results depend on the processing

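Mmp2, Mmp11 and the brighter Timp3 probe kept their direction under every alternative that gave a value; Mmp2 gave none without culture 2 or culture 3, where 1 culture remained. The number of members called was 3. It was 5 with the scanner software's ratios, with the authors' deposited table and with median centring, 6 with scale normalisation between arrays, 8 on arrays with epithelial RNA in Cy3 alone and 1 at adjusted p under 0.01. The scanner software's ratios, the deposited table and median centring called 2482 (12.3%), 2518 (12.4%) and 2530 (12.5%) of all probes. With limma on the 2 RNAs compared without pairing by culture (no replicate block), 0 members were called. There 4 members had an unadjusted p under 0.05, as did 1745 of all 20185 probes. Leaving out each culture gave 0 to 6 members called. Without culture 3 the number was 0, and 4 members had an unadjusted p under 0.05, as did 3061 of all 19271 probes tested. Without culture 1 the 2 cultures left give too small an estimate of spread, so calls and p-values of single probes from that fit are not given, and its count of 6 members called rests on that spread. Over all probes, 2272 calls became 3600 with scale normalisation, 256 without the pairing, 8211 and 6898 on arrays with epithelial RNA in Cy3 or in Cy5 alone, 963 at adjusted p under 0.01, 353 with at least a 2-fold change, and 809 to 5875 with a culture left out; 6 arrays with the culture as a replicate block gave 2804, and 4 members. On arrays with epithelial RNA in Cy5 alone, the sign of Timp2 A_65_P12392 turned (-0.10), with the array of culture 3 saturated for both RNAs. Signs also turned there for Adamts1 (1.25), Adamts5 (0.70), Mmp14 (1.19), Timp1 A_65_P10091 (0.36), Adam9 (0.62), Bmp1 (-0.29), Mmp1a (-0.10) and Igfbp3 (0.20). With epithelial RNA in Cy3 alone they turned for Mep1a (0.048), Adam8 (0.46) and Adamts4 (0.45). Without culture 1 they turned for Timp2 A_65_P06139 (-0.14) and Mmp1a (-0.013), without culture 2 for Adam8 (0.064) and Adamts4 (0.020), and without culture 3 for Adam8 (0.016) and Mep1a (0.032). With each culture left out, Timp2 A_65_P06139 ranged from -0.14 to 0.51, Mep1a from -0.042 to 0.032, Adam8 from -0.12 to 0.064, Adamts4 from -0.050 to 0.020 and Mmp1a from -0.013 to 0.062. Signs turned with scale normalisation for Adam8 (0.026) and Adamts4 (0.0076). Among the other genes named, the comparison without pairing lost the calls of Elk3, Junb, Ets2, Cd44, Plaur, Adamts2, Pcolce2, Mmp24, Igfbp3 and Sdc1, and that of Junb was also lost with no background subtraction and with a variance trend. Arrays with epithelial RNA in Cy3 alone lost the calls of Elk3, Junb, Ets2 and Cd44, and those with it in Cy5 alone that of Pcolce2 (-0.17). The causes of these lost calls and turned signs were not tested. The ratio of the saturated probe Timp2 A_65_P09092 carries no direction: the values computed, 0.15 on arrays with epithelial RNA in Cy3 alone and -0.063 to 0.0020 with a culture left out, only reflect the scanner's limit.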

Other observations

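On 1 array, whose annotation differs from that of the other 5, a pair of further probes bear a member's name. Probe A_65_P08843, named Mmp14 there and Mapre2 on the other arrays, had a log2 ratio of 0.28 (limma adjusted p = 0.0716). Probe A_65_P04956, named Timp3 there and an expressed sequence on the others, was at -0.12 (limma adjusted p = 0.544). Neither was counted among the members.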
